A study of Mus musculus with 9 samples.

Results

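The mitochondrial ribosome has a large and a small subunit, and nearly all of its proteins are named with the prefix Mrpl or Mrps. Their genes were read here in the nasal mucosa of a mouse model of allergic rhinitis. Members were all probe sets annotated to a single gene whose platform symbol is Mrpl or Mrps followed by a number and at most 1 letter. The rule found 85 probe sets of 77 genes, among 19938 genes with such a probe set. For the 8 genes with more than 1 probe set, the probe set was chosen by its mean over the 9 arrays, the highest mean standing for the gene, so the mean level of a member is a description and carries no test. Of the 77 genes, 50 encode proteins of the large subunit and 26 encode proteins of the small subunit. Mrps36 belongs to neither, since its product is now known as a component of the 2-oxoglutarate dehydrogenase complex. Large-subunit proteins include Mrps18a and Mrps30, whose names predate their placement there.

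Mitochondria keep a small genome of their own, and the mitochondrial ribosome translates the few membrane subunits of the respiratory chain and ATP synthase that it encodes. All proteins of this ribosome are made in the cytosol from nuclear genes and imported, while its ribosomal RNAs come from mitochondrial DNA. Many of the proteins descend from bacterial ribosomal proteins and others are found only in mitochondria. In the nose, ciliated cells and olfactory neurons are examples of cells with a high demand for ATP.

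RNA of nasal mucosa from BALB/c mice was hybridised to Affymetrix Mouse Gene 1.0 ST arrays, 3 arrays for each of 3 groups. In the 4-week group, mice were sensitized to and challenged with ovalbumin (OVA) and killed 4 weeks after their last challenge. In the OVA group, mice with the same sensitization and challenge were killed 2 h after the last challenge, and in the control group saline took the place of OVA throughout. All 9 samples carry the labels male and an age of 6 to 8 weeks, and the labels do not say whether the arrays of a group are separate animals, so p-values measure only how these samples vary within groups, which may be technical variation. Arrays of the same group correlated at 0.986 to 0.992 over all probe sets, and arrays of different groups at 0.973 to 0.988. The female-specific transcript Xist stood at 4.27 to 4.42 on the 4-week arrays and 4.22 to 4.36 on the OVA arrays, against 10.62 to 11.11 on the arrays labelled control (log2 expression), and the Y-linked genes Eif2s3y, Uty and Kdm5d ran the other way. All 3 arrays labelled control show this pattern, so treatment and the sex-linked pattern cannot be told apart in any difference against them. Only 4-week minus OVA sets arrays of the same sex-linked pattern side by side. There the age label is the same for mice killed 2 h and 4 weeks after the last challenge. Age at killing may therefore differ between these groups and cannot be told apart from time since challenge. No time of killing was read from the labels of the control arrays. Of the 77 genes, 0 lie on chromosome X or Y, and they are spread over 17 other chromosomes. In bulk mucosa, fewer cells of a type and less RNA per cell cannot be told apart.

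Promoter windows are shown for the members that passed the test in more than 1 comparison. RefSeq (GRCm38.p6) gave a window of 300 bases, 250 before to 50 after the gene's start, for 68 of the 77 genes, and for 4 of these 5 members. The windows run 5′ to 3′ on the gene's strand, at chr3:95871465-95871764 for Mrps21 (minus strand), chr3:94443086-94443385 for Mrpl9 (plus strand), chr19:11770165-11770464 for Mrpl16 (plus strand) and chr16:18876588-18876887 for Mrpl40 (minus strand), and the fifth member is Mrpl4. Capitals mark matches to 4 motifs searched on both strands: GCATGCGC for NRF1, CCGGAAG for ETS factors such as GABP, AAGATGGCG for YY1 and CACGTG for the E-box.
Mrps21: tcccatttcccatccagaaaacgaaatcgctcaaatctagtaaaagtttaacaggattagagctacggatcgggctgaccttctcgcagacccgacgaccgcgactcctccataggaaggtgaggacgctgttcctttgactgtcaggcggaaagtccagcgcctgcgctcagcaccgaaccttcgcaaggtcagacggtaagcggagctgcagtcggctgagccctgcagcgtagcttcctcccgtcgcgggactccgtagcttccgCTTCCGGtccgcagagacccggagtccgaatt
Mrpl9: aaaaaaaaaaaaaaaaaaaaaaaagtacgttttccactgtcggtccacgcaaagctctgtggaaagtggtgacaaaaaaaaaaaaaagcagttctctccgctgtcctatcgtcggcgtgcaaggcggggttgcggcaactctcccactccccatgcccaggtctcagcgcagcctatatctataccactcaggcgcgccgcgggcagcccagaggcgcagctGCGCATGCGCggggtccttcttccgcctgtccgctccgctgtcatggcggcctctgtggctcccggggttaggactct
Mrpl16: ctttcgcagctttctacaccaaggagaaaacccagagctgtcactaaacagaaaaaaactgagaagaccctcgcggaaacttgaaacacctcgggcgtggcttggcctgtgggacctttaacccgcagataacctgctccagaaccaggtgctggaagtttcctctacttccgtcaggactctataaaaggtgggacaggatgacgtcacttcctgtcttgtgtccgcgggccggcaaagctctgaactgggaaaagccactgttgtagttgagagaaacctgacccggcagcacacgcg
Mrpl40: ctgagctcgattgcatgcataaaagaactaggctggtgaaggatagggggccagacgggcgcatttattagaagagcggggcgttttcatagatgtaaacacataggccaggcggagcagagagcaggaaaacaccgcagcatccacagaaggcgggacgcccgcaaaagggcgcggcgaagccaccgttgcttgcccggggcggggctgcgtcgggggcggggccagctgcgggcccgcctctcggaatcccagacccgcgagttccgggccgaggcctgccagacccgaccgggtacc

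The Mrps21 window held 1 ETS motif, read on the reverse strand and beginning 18 bases after the start. The Mrpl9 window held overlapping NRF1 motifs on both strands, which form the run of capitals before its start, and the Mrpl16 and Mrpl40 windows held none of the 4. NRF1 and GABP are known as activators of many nuclear genes for mitochondrial proteins, and YY1 motifs of this form are common in promoters of housekeeping genes. Over the 74 windows of the 68 genes, the ETS motif was in 33.8%, the NRF1 motif in 10.8%, the YY1 motif in 10.8% and the E-box in 9.46%. Over the 21263 windows of protein-coding genes the shares were 11.6%, 3.52%, 1.83% and 7.84%, and over all 32851 windows they were 8.86%, 2.71%, 1.40% and 7.15%. Several windows can belong to 1 gene. The ETS and YY1 motifs can share the letters AAG at their ends, the NRF1 motif can overlap its own reverse strand, and the E-box reads the same on both. Counted by gene, 25 of the 68 had the ETS motif, 8 the NRF1 motif, 8 the YY1 motif and 5 the E-box. Among the 10 members with a window that passed the test in any comparison, 6 had the ETS motif, 3 the NRF1 motif and 0 the YY1 motif or the E-box. Whether called members differ from the others in motifs was not tested. These matches are a description of the letters, and binding was not measured.

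The values are log2 expression per probe set. Probe sets of different genes are not compared in level, and all differences below are between groups for the same probe set. A member is called when limma's adjusted p (Benjamini-Hochberg over 23410 probe sets) is under 0.05, and rose and fell are used only of called differences. Values of the 77 members were tight, with a median SD within groups of 0.093, against 0.12 over all probe sets. Their median per array was 7.19, 7.191 and 7.069 on the 4-week arrays, 7.012, 6.989 and 7.033 on the OVA arrays and 7.024, 7.051 and 7.02 on the control arrays. The medians of the 4-week arrays lay above those of the other 6 arrays. The means over members did not separate, with 7.046 on the third 4-week array and 7.048 on the first control array. The 3 comparisons share arrays, so their counts are not independent of one another.

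In OVA minus control, 1 of the 77 members was called, the small-subunit gene Mrps21, which rose. The share was 1.30% of members and 1.3% of all probe sets (0.782% higher and 0.521% lower). The members' median difference was 0.03 (log2) against −0.02 over all probe sets, and 9 members had an unadjusted p under 0.05, which is 11.7% against 16.4% of all. Differences were small: for 76 of 77 members the 95% interval of the difference lay within 1.5-fold in either direction, 98.7% against 85.3% of all probe sets. No large-subunit gene was called (0 of 50 by limma, 6 at an unadjusted p under 0.05). The next smallest p-values belonged to the small-subunit genes Mrps18b (0.27, adjusted p = 0.0895) and Mrps28 (0.27, 0.103) and the large-subunit genes Mrpl41 (0.22, 0.167), Mrpl58 (−0.24, 0.192) and Mrpl46 (−0.29, 0.216). That call was lost in 8 of the 9 fits that leave out 1 array and remained only without the third 4-week array, with an adjusted p of up to 0.155.

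In 4-week minus OVA, 7 of 77 members were called, 9.09% against 6.33% of all probe sets. The 5 that rose were Mrps21, Mrpl40, Mrpl16, Mrpl58 and Mrpl9, where 3.81% of all probe sets rose, and the 2 that fell were Mrps28 and Mrpl4, where 2.51% fell. With quantile normalization 4 rose and the same 2 fell, since Mrpl16 was no longer called. With each array centred on its median, 6 rose and 1 fell, since Mrpl4 was no longer called and Mrpl3 was. That setting called 1740 of 23410 probe sets and moved the median of all probe sets from −0.024 to 0.036. Without centring, the members' median difference was 0.03 against −0.02 and their interquartile range 0.22 against 0.25. There 19 members had an unadjusted p under 0.05, which is 24.7% against 23.9% of all probe sets. The interval lay within 1.5-fold for 71 of 77, 92.2% against 80.8%. The count depends on single arrays: it was 1 without the second OVA array, 2 without the third OVA array or the first 4-week array, 3 without the first OVA array, 4 without the second control array or the second or the third 4-week array, and 7 without the first or the third control array.

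In 4-week minus control, 11 of 77 members were called, 14.3% against 14.4% of all probe sets. The 7 that rose were Mrps21, Mrpl15, Mrpl3, Mrpl16, Mrpl40, Mrps18b and Mrpl9, where 7.92% of all probe sets rose, and the 4 that fell were Mrpl4, Mrpl18, Mrps2 and Mrpl17, where 6.45% fell. With quantile normalization 7 members rose and the same 4 fell. With each array centred on its median, 10 rose and 0 fell, and none of these 4 was called by limma. That setting called 3506 of 23410 probe sets and moved the median of all probe sets from −0.041 to 0.032. Without centring, the members' median difference was 0.04 against −0.04 over all probe sets. There 25 members had an unadjusted p under 0.05, which is 32.5% against 32.9%. Leaving out 1 array gave 2 calls without the third control array, 3 without the second 4-week array, 4 without the second control array or the first 4-week array, 5 without the second OVA array, 6 without the third 4-week array, 7 without the first control or the first OVA array and 8 without the third OVA array. Over the 3 comparisons, 13 members were called at least once, 5 more than once and 64 never.

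**Figure D1:**
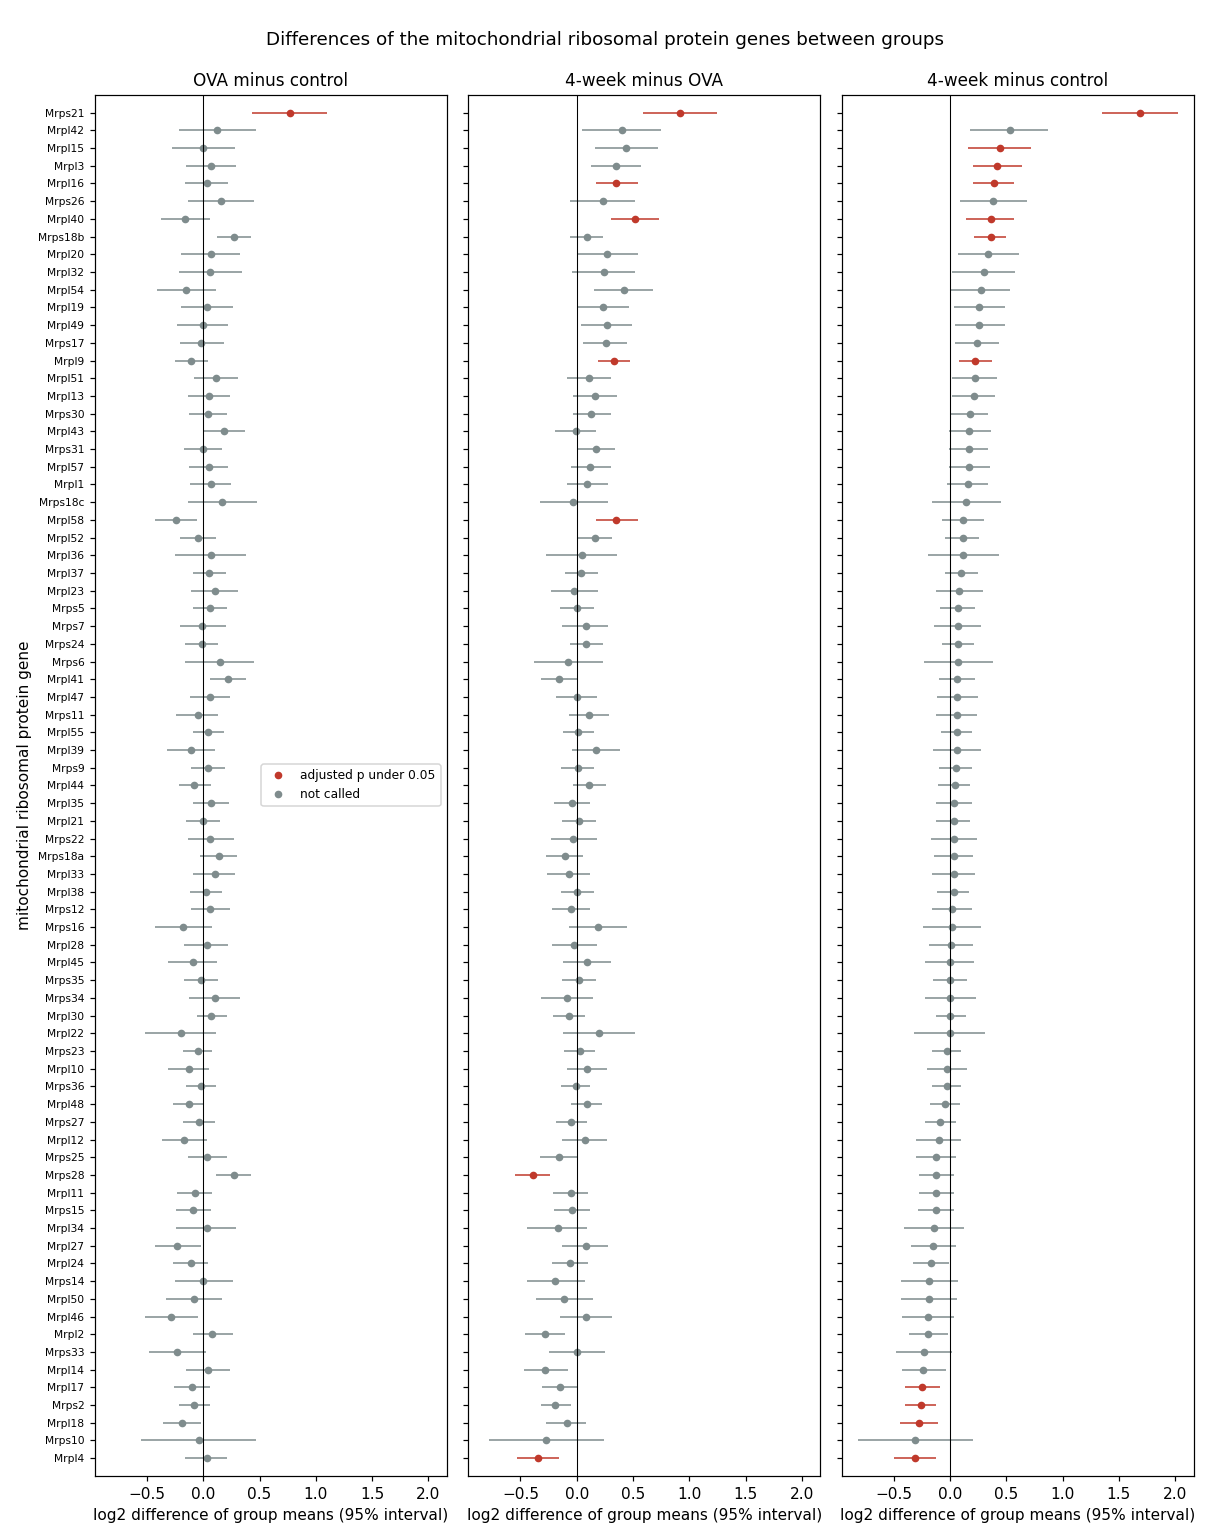
Log2 difference of group means for each of the 77 genes (points) with its 95% interval from limma (bars), in OVA minus control, in 4-week minus OVA and in 4-week minus control, ordered by the last. Red points have an adjusted p under 0.05, 1, 7 and 11 of them in the 3 panels, and Mrps21 stands apart at the top with 0.77, 0.92 and 1.69.

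Mrps21 encodes the homologue of the bacterial small-subunit protein S21. It measured 10.13, 10.27 and 9.75 on the 4-week arrays, 9.24, 9.18 and 8.97 on the OVA arrays and 8.53, 8.15 and 8.40 on the control arrays. Each group lay wholly above the next, with no overlap. It rose by 0.92 ± 0.15 (log2, SE, n = 3 each, 1.89-fold, limma adjusted p = 0.011) in 4-week minus OVA, and by 1.69 ± 0.15 (3.22-fold, 95% interval 1.35 to 2.02, limma adjusted p = 0.00107) in 4-week minus control. Both calls held in all 9 fits that leave out 1 array, with adjusted p of at most 0.0492 and 0.0066. In OVA minus control it rose by 0.77 ± 0.15 (1.70-fold, limma adjusted p = 0.0464), the call that most fits without 1 array lose.

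Mrps21 was the only member whose difference exceeded 1.5-fold in any of the 3 comparisons. Of all 23410 probe sets, 5 (0.0214%) rose in both OVA minus control and 4-week minus OVA, and Mrps21 was among them. Its place there rests on the OVA minus control call, which most fits without 1 array lose and which carries the sex-linked pattern of the control arrays. Both comparisons use the OVA arrays, with opposite sign, so the joint share is not that of independent results. The neighbours below are those of Mrps21. On chromosome 3 in the RefSeq gene order, these are Prpf3 and Ciart, which were not called in any comparison. In 4-week minus OVA they differed by 0.08 ± 0.09 and −0.37 ± 0.21, and in 4-week minus control by 0.07 and −0.24. The 4 markers of immature olfactory neurons (Gap43, Gng8, Stmn1 and Sox11) moved with the OVA minus control difference, 4 of 4 being called higher, with a summed level of 10.26 to 10.46 on the 4-week arrays, 10.37 to 10.69 on the OVA arrays and 9.56 to 9.58 on the control arrays (log2 of the summed linear values). Of these 4 markers, 0 rose and 1 fell in 4-week minus OVA (limma, 1 of 4 at an unadjusted p under 0.05), and 3 rose in 4-week minus control. Of all probe sets, 0.782% rose in OVA minus control, 2.51% fell in 4-week minus OVA and 7.92% rose in 4-week minus control. The part of these markers in the Mrps21 result was not tested.

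Mrps28, the homologue of a part of the bacterial mRNA-binding protein S1, had the opposite course at 4 weeks. It measured 6.50, 6.55 and 6.63 on the 4-week arrays, 7.04, 6.95 and 6.87 on the OVA arrays and 6.69, 6.69 and 6.67 on the control arrays. The OVA arrays were the highest 3 and the 4-week arrays the lowest 3. It fell by 0.39 ± 0.07 (log2, SE, n = 3 each, limma adjusted p = 0.015) in 4-week minus OVA, a call lost without the second OVA or the second 4-week array, with an adjusted p of up to 0.0562. The differences of 0.27 in OVA minus control (limma adjusted p = 0.103) and −0.13 in 4-week minus control (0.23) were not called.

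The 3 paralogues of bacterial S18 did not share a pattern of calls. Mrps18b, whose product sits in the small subunit, measured 7.88, 7.93 and 7.98 on the 4-week arrays, 7.89, 7.80 and 7.86 on the OVA arrays and 7.62, 7.61 and 7.50 on the control arrays. The control arrays were the lowest 3, while the 4-week and OVA arrays overlapped. It rose by 0.36 ± 0.06 (limma adjusted p = 0.0101) in 4-week minus control, a call kept in all 9 fits without 1 array, and differed by 0.27 ± 0.06 in OVA minus control (adjusted p = 0.0895). Mrps18c, the small-subunit protein that keeps the S18 position, and Mrps18a, which is in the large subunit, were called in no comparison, with 4-week minus control differences of 0.14 ± 0.14 and 0.03 ± 0.07. Whether the paralogues differ from each other was not tested.

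Mrps2, the homologue of S2, measured 7.24, 7.25 and 7.11 on the 4-week arrays, 7.38 on each OVA array and 7.45, 7.47 and 7.47 on the control arrays. The 3 groups did not overlap, with the 4-week arrays lowest. It fell by 0.26 ± 0.06 in 4-week minus control (limma adjusted p = 0.0241), a call lost without the second or the third control array or the second or the third 4-week array. Mrps12, the homologue of the decoding-centre protein S12, stood at 5.95 to 5.99, 5.93 to 6.16 and 5.88 to 6.02 on the 4-week, OVA and control arrays, with overlapping groups and no call. Over the 26 small-subunit genes, 1, 2 and 3 were called in OVA minus control, in 4-week minus OVA and in 4-week minus control. The shares were 3.85%, 7.69% and 11.5%, against 1.3%, 6.33% and 14.4% of all probe sets. Median differences were 0.00, 0.00 and 0.03. Of the 10 small-subunit proteins classed as mitochondria-specific, Mrps18b in 4-week minus control was the only one called in any comparison. The class holds Mrps18b although it is a paralogue of S18.

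Among large-subunit genes, those near the peptidyl transferase centre were Mrpl2, Mrpl3, Mrpl16 and Mrpl27, homologues of bacterial L2, L3, L16 and L27. Mrpl16 measured 7.94, 7.72 and 7.92 on the 4-week arrays, 7.59, 7.38 and 7.55 on the OVA arrays and 7.49, 7.49 and 7.44 on the control arrays. The 4-week arrays were above all others, and the OVA and control arrays overlapped. Mrpl16 rose by 0.39 ± 0.08 in 4-week minus control (limma adjusted p = 0.0189, lost without the second or the third control or the first 4-week array) and by 0.35 ± 0.08 in 4-week minus OVA (adjusted p = 0.041, kept only without the second 4-week array).

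Mrpl3 measured 7.84, 7.83 and 7.87 on the 4-week arrays, 7.58, 7.34 and 7.56 on the OVA arrays and 7.60, 7.41 and 7.28 on the control arrays. Here too the 4-week arrays lay above all others, and it rose by 0.42 ± 0.10 in 4-week minus control (limma adjusted p = 0.0238, kept only without the first control array or any 1 OVA array), while its 0.35 ± 0.10 in 4-week minus OVA was not called (0.0654). Mrpl2 ran lower, at 6.51, 6.55 and 6.41 on the 4-week arrays, 6.70, 6.71 and 6.90 on the OVA arrays and 6.63, 6.67 and 6.75 on the control arrays. Its 4-week arrays were the lowest 3, yet neither −0.28 ± 0.08 in 4-week minus OVA (0.0682) nor −0.20 ± 0.08 in 4-week minus control (0.118) passed. Mrpl27 was called in no comparison, and its 2 probe sets disagreed in level, with means of 7.81 and 6.39 on the 4-week arrays.

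The exit tunnel is the channel through which the new chain leaves. Of the homologues of L17, L22, L23, L24 and L29 (Mrpl17, Mrpl22, Mrpl23, Mrpl24 and Mrpl47) and the protein that anchors the ribosome at the inner membrane (Mrpl45), only Mrpl17 was called. The others differed by −0.06 ± 0.07 (Mrpl24) to 0.20 ± 0.14 (Mrpl22) in 4-week minus OVA. Mrpl17 measured 7.49, 7.38 and 7.27 on the 4-week arrays, 7.54, 7.54 and 7.49 on the OVA arrays and 7.60, 7.66 and 7.61 on the control arrays, and it fell by 0.25 ± 0.07 in 4-week minus control (limma adjusted p = 0.0477, kept only without the first 4-week array). The 3 groups were in steps with little between them: the OVA and 4-week arrays met at 7.49. Mrpl4, the homologue of L4, which lines the tunnel in bacteria, measured 7.70, 7.73 and 7.57 on the 4-week arrays, 8.05, 8.02 and 7.96 on the OVA arrays and 7.84, 8.02 and 8.09 on the control arrays. Its 4-week arrays were the lowest 3. It fell by 0.34 ± 0.08 in 4-week minus OVA (adjusted p = 0.0427, kept only without the first or the third control array) and by 0.31 ± 0.08 in 4-week minus control (adjusted p = 0.0352, kept only without the first control or the third OVA array). Both Mrpl4 calls were lost with each array centred on its median and kept with quantile normalization.

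The central protuberance, the crown of the large subunit, holds the products of Mrpl18, Mrpl38, Mrpl40, Mrpl46, Mrpl48 and Mrpl52, of which all but Mrpl18 are found only in mitochondria. Mrpl40 measured 8.81, 8.55 and 8.64 on the 4-week arrays, 8.32, 8.10 and 8.03 on the OVA arrays and 8.36, 8.25 and 8.32 on the control arrays. The 4-week arrays were the highest 3, and the OVA and control arrays overlapped. It rose by 0.52 ± 0.10 in 4-week minus OVA (1.43-fold, limma adjusted p = 0.0198, lost without the second or the third OVA or the first 4-week array) and by 0.36 ± 0.10 in 4-week minus control (adjusted p = 0.039, kept only without the first or the third OVA array).

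Mrpl18 measured 6.84, 6.93 and 7.03 on the 4-week arrays, 6.99, 7.03 and 7.06 on the OVA arrays and 7.23, 7.12 and 7.30 on the control arrays. The control arrays were the highest 3, and it fell by 0.28 ± 0.08 in 4-week minus control (limma adjusted p = 0.0393, kept only without the second control or the third 4-week array). The other 4 genes of the protuberance were not called: in 4-week minus OVA, Mrpl38 differed by 0.00 ± 0.06, Mrpl46 by 0.08 ± 0.10, Mrpl48 by 0.09 ± 0.06 and Mrpl52 by 0.16 ± 0.07. Directions within the protuberance were thus mixed.

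Mrpl58 encodes a peptidyl-tRNA hydrolase that is built into the large subunit. It measured 7.93, 7.88 and 7.75 on the 4-week arrays, 7.50, 7.40 and 7.59 on the OVA arrays and 7.84, 7.69 and 7.69 on the control arrays. The OVA arrays were the lowest 3, and the 4-week and control arrays overlapped. It rose by 0.35 ± 0.08 in 4-week minus OVA (limma adjusted p = 0.0381, kept only without the first or the third control or the third 4-week array), and its −0.24 ± 0.08 in OVA minus control was not called (0.192). The stalk, which recruits translation factors, is represented by Mrpl10, Mrpl11, Mrpl12 and Mrpl54. None of these 4 was called, with limma adjusted p-values of at least 0.0693 over the 3 comparisons. Mrpl10 differed by 0.09 ± 0.08, Mrpl11 by −0.05 ± 0.07 and Mrpl12 by 0.07 ± 0.09 in 4-week minus OVA. Mrpl54 differed there by 0.42 ± 0.12 (adjusted p = 0.0693), with 7.20, 7.27 and 7.12 on the 4-week arrays above 6.91, 6.61 and 6.82 on the OVA arrays. Mrpl44, a protein with an RNase III fold, differed by 0.11 ± 0.06.

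Mrpl9, the homologue of L9, measured 7.23, 7.10 and 7.15 on the 4-week arrays, 6.83, 6.78 and 6.88 on the OVA arrays and 6.96, 6.89 and 6.96 on the control arrays. The 3 groups did not overlap, with the 4-week arrays highest and the OVA arrays lowest. It rose by 0.33 ± 0.06 in 4-week minus OVA (limma adjusted p = 0.0224, kept without any 1 control array or the second 4-week array and lost otherwise) and by 0.22 ± 0.06 in 4-week minus control (adjusted p = 0.0483, lost in all 9 fits without 1 array). Mrpl15, the homologue of L15, measured 7.28, 7.52 and 7.10 on the 4-week arrays, 7.01, 6.86 and 6.71 on the OVA arrays and 7.01, 6.75 and 6.82 on the control arrays. Its 4-week arrays were the highest 3. It rose by 0.44 ± 0.12 in 4-week minus control (adjusted p = 0.0457, kept only without the first control or the third 4-week array), and the same difference in 4-week minus OVA was not called (0.0727).

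**Figure D2:**
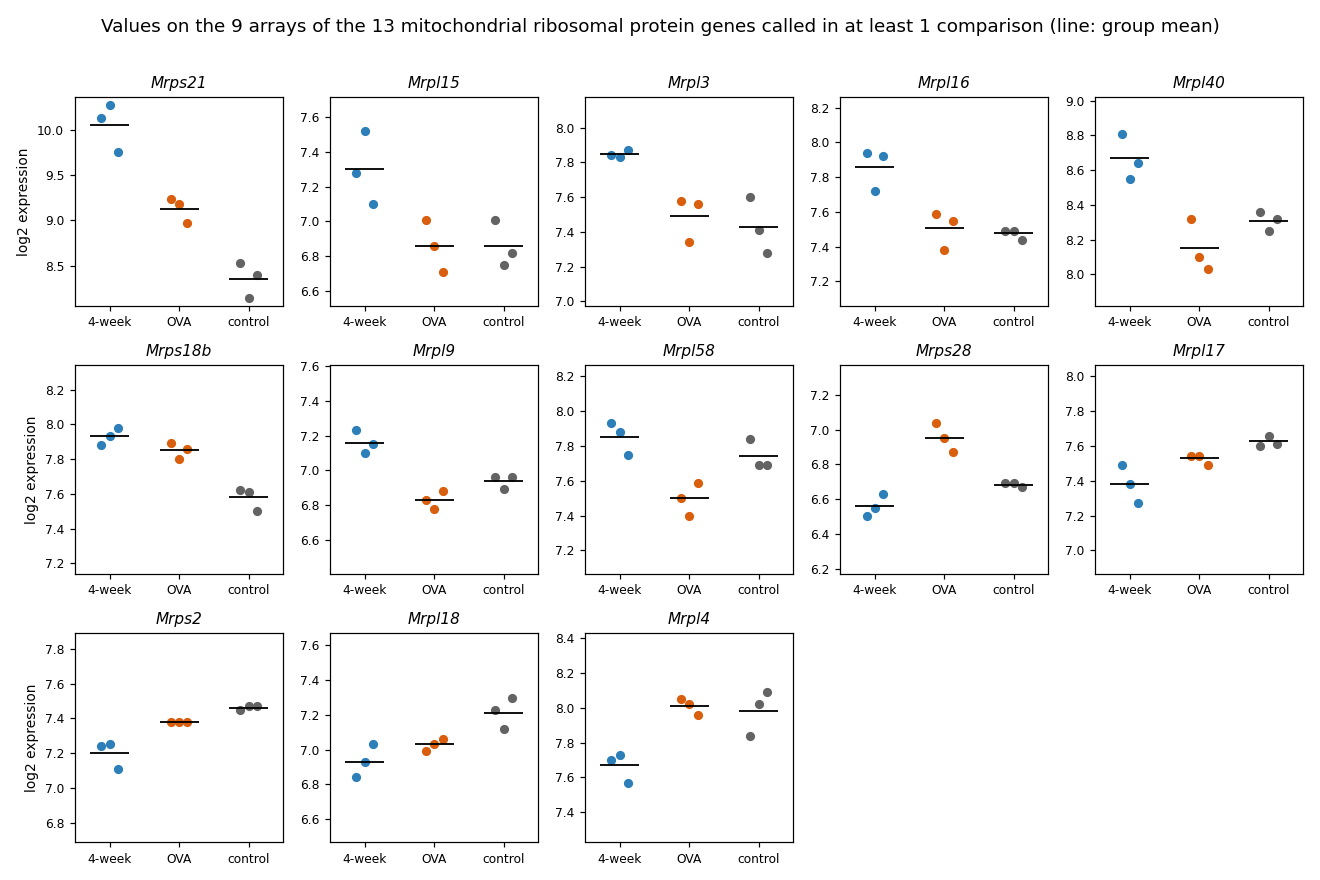
Log2 expression on each array (points) with the group mean (line) for the 13 genes called in at least 1 comparison, 4-week arrays at the left, then OVA and control; each panel has its own vertical range. In Mrps21 the 3 groups form separate steps, the 4-week arrays at 9.75 to 10.27, OVA at 8.97 to 9.24 and control at 8.15 to 8.53.

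Over the 50 large-subunit genes, 0, 5 and 8 were called in OVA minus control, in 4-week minus OVA and in 4-week minus control. The shares were 0%, 10% and 16%, against 1.3%, 6.33% and 14.4% of all probe sets. Median differences were 0.03, 0.08 and 0.06. The 20 large-subunit proteins classed as mitochondria-specific, the S18 paralogue Mrps18a among them, had a median of 0.11 in 4-week minus OVA. Of these 20 differences 16 were above 0, and 2 were called (Mrpl40 and Mrpl58). The 30 with a bacterial homologue had a median of 0.02 there, with 3 called. In 4-week minus control they held 7 of the 8 calls, 4 higher and 3 lower. That is 23.3% of the 30, against 5% of the 20 and 14.4% of all probe sets. The 3 lower calls, Mrpl4, Mrpl17 and Mrpl18, were lost with each array centred on its median and kept with quantile normalization. Whether the subunits or the 2 kinds of protein differ was not tested.

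The 64 members called in no comparison had differences of −0.29 to 0.22 in OVA minus control, −0.28 to 0.42 in 4-week minus OVA and −0.31 to 0.53 in 4-week minus control. The ends of the last range were singled out after their values were seen. Mrpl42, a large-subunit protein found only in mitochondria, measured 5.80, 6.11 and 5.93 on the 4-week arrays, 5.54, 5.53 and 5.56 on the OVA arrays and 5.36, 5.78 and 5.11 on the control arrays, with the 4-week arrays the highest 3 (limma adjusted p = 0.0522 in 4-week minus control). Mrps10, the homologue of S10, measured 5.38, 6.28 and 6.19 on the 4-week arrays, 5.91, 6.36 and 6.39 on the OVA arrays and 6.35, 6.26 and 6.18 on the control arrays. The first 4-week array was the lowest of the 9, the groups overlapped, and the difference of −0.31 ± 0.23 in 4-week minus control was not called (adjusted p = 0.359).

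Some members carry limits of measurement. RefSeq lists pseudogenes named after Mrpl23, Mrpl27, Mrpl48 and Mrps36, so probes for these 4 genes may not tell gene and pseudogene apart. None of these 4 was called in any comparison (limma adjusted p of at least 0.266). Pseudogenes under other names were not searched, so the other members, Mrps21 and the rest of the called ones included, may share this limit. The 8 genes with 2 probe sets were likewise never called with the probe set used (at least 0.117). Values were equal, in every deposited digit, on 3 or more arrays for 25 of 77 members (32.5%, against 27.7% of all probe sets), as for Mrps2 above. Mrps36 stood at 5.16 to 5.18 on the 4-week arrays, 5.18 on each OVA array and 5.16 to 5.27 on the control arrays.

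Other proteins of the mitochondrial ribosome have names without the prefix, and 4 of these were measured. In 4-week minus OVA, 3 rose: Dap3, a GTP-binding protein of the small subunit, by 0.31 ± 0.07 (limma adjusted p = 0.0378), Ptcd3, a pentatricopeptide-repeat protein of the small subunit, by 0.35 ± 0.08 (0.0466), and Chchd1 by 0.45 ± 0.11 (0.0484). Gadd45gip1, of the large subunit, differed by 0.08 ± 0.06 (0.481). Dap3 and Ptcd3 also rose in 4-week minus control, by 0.34 and 0.40. None was called in OVA minus control (0 of 4 by limma, 0 at an unadjusted p under 0.05). Of all probe sets, 3.81% rose in 4-week minus OVA and 7.92% in 4-week minus control.

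Genes that act beside the ribosome were compared in the same fit. Of 25 factors that assemble the mitochondrial ribosome, 0 were called in 4-week minus OVA (6 at an unadjusted p under 0.05), against 6.33% of all probe sets. In 4-week minus control 4 were called, 16% against 14.4% of all probe sets. There Rbfa, a small-subunit maturation factor, rose by 0.39 ± 0.11. The rRNA methyltransferases Nsun4 and Tfb1m fell by 0.40 ± 0.08 and 0.27 ± 0.07, as did Mpv17l2, by 0.35 ± 0.08. Of 16 translation factors, only Guf1, an elongation factor, was called in 4-week minus OVA (6.25%), with a rise of 0.40 ± 0.07 (limma adjusted p = 0.0131). Of 19 genes for charging mitochondrial tRNAs, only Iars2, the isoleucyl-tRNA synthetase, was called there (5.26%), with a rise of 0.41 ± 0.07 (0.0192). Of 11 genes of mitochondrial DNA transcription and upkeep, only Tfb2m was called there (9.09%), with a rise of 0.38 ± 0.06 (0.0129). Of 10 nuclear regulators of mitochondrial genes, among them Nrf1, Gabpa, Yy1 and Ppargc1a, 0 were called in any comparison, with 2, 3 and 3 at an unadjusted p under 0.05 in OVA minus control, in 4-week minus OVA and in 4-week minus control. In OVA minus control 0 genes of these 5 lists were called, against 1.3% of all probe sets.

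The cytosolic ribosome makes all nuclear-encoded proteins, those of the mitochondrial ribosome included, and its protein genes were read in the same fit. In 4-week minus OVA, 5 of the 77 mitochondrial members rose and 2 fell, with a median of 0.03 and quartiles of −0.05 and 0.16, against 17 risen and 0 fallen of 61 cytosolic genes, with a median of 0.23 and quartiles of 0.12 and 0.42. Rpl27a, by 0.72, Rpl4, by 0.67, and Rpl10a, by 0.73, were among those that rose. In 4-week minus control the counts were 7 risen and 4 fallen of 77, median 0.04, against 18 risen and 2 fallen of 61, median 0.17. In OVA minus control they were 1 risen of 77, median 0.03, against 1 fallen of 61, Rpl38, median −0.07. Of all probe sets, 3.81% rose and 2.51% fell in 4-week minus OVA. The shares were 7.92% and 6.45% in 4-week minus control, and 0.782% and 0.521% in OVA minus control. The difference between the lists was not tested, and cytosolic ribosomal protein genes have many processed pseudogenes, so their probe sets are uncertain.

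**Figure D3:**
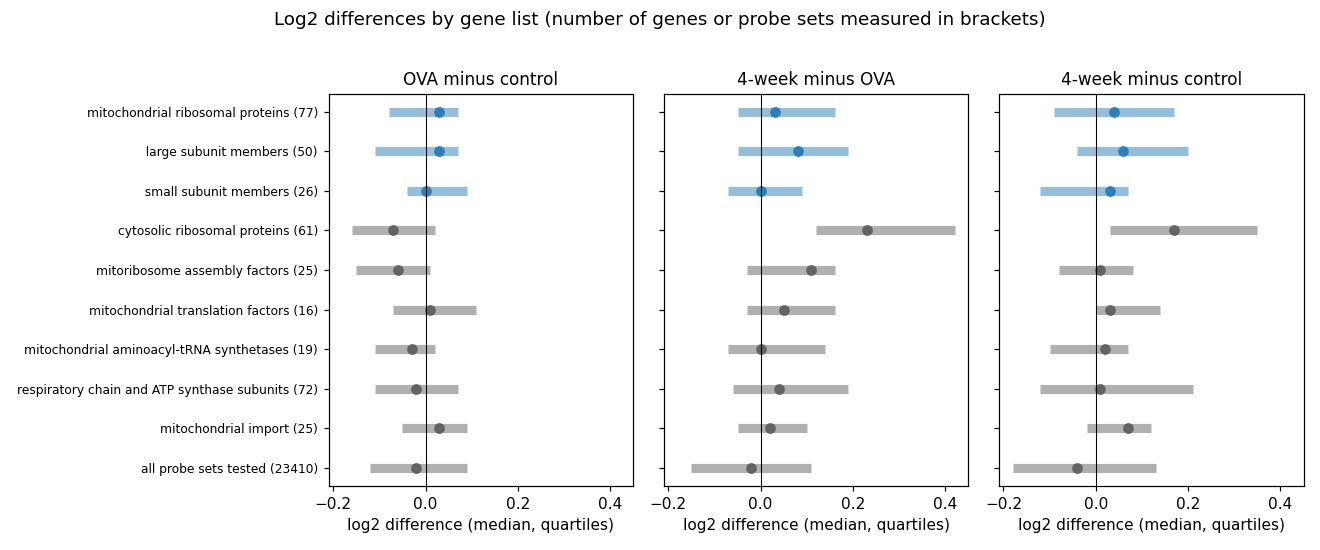
Median (point) and quartiles (bar) of the log2 differences in each gene list, with the number of genes measured in brackets, in OVA minus control, in 4-week minus OVA and in 4-week minus control. The 77 mitochondrial ribosomal proteins centre at 0.03, 0.03 and 0.04, the 61 cytosolic ribosomal proteins at −0.07, 0.23 and 0.17 and all probe sets at −0.02, −0.02 and −0.04.

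Markers of the cell types that nasal mucosa can hold are given as summed levels (log2 of summed linear values) beside these differences. Ciliated-cell markers stood at 10.16 to 10.32 on the 4-week arrays, 9.27 to 9.85 on the OVA arrays and 9.51 to 10.17 on the control arrays, with 0 of 4 called in any comparison and 2 of 4 at an unadjusted p under 0.05 in 4-week minus OVA. In this list the 4-week arrays lay above the OVA arrays, while the 4-week and control ranges overlapped. Mature olfactory neuron markers were at 13.05 to 13.53, 13.25 to 13.42 and 13.38 to 13.73 on the 4-week, OVA and control arrays, with 1 of 5, Gnal, fallen in 4-week minus control. For the other lists the 4-week, OVA and control ranges were 13.19 to 13.40, 13.06 to 13.23 and 13.12 to 13.33 for sustentacular cells, and 9.25 to 9.40, 9.28 to 10.02 and 9.11 to 9.90 for leukocytes. Muscle had 7.78 to 8.20, 7.63 to 7.90 and 7.81 to 7.95, and fat 6.87 to 7.13, 7.05 to 7.09 and 7.10 to 7.21. Bone had 8.94 to 9.95, 8.05 to 9.01 and 8.40 to 9.26, and erythroid cells 8.54 to 9.23, 8.10 to 8.80 and 8.38 to 8.70. Of the lists in the last 3 sentences, limma called 0 genes in any comparison, with between 0 and 2 genes of a list at an unadjusted p under 0.05. The part of cell composition in the members' differences was not tested.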

How the data were processed

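RNA of 9 nasal mucosa samples was read on 1 array each. The deposited values are on a log2 scale (range 1.63 to 13.8) and were made by the authors with RMA, per the submitters' processing notes. Software, version and library were not given in the sources used here. The log2 scale was taken from the values. No detection calls were used, so signal over background is unknown, and the number of arrays limits the precision. Genes were named from the platform annotation of the 35556 probe sets: 23410 of them carry a gene symbol and entered the tests, and 1 probe set annotated to a gene of this family together with another gene is not a member. All 77 members matched the RefSeq gene table of GRCm38.p6.

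The 9 arrays entered 1 limma fit (limma 3.58.1, R 4.3.3, lmFit and eBayes with default settings, 1 mean per group, two-sided). P-values of each of the 3 comparisons were adjusted by Benjamini-Hochberg over the 23410 probe sets, at a threshold of 0.05. The fit was tested on simulated data. The intervals are limma's 95% intervals, without adjustment for the number of genes. Lists are described by counts and medians, with no test over a list. The members and lists were chosen with earlier results of these data known, so no count over them is independent evidence. The text names members called in any comparison, for a comparison with fewer than 6 calls its 6 smallest p-values, and members with a role chosen from general knowledge. Prpf3, Ciart and other neighbouring genes come from the RefSeq gene order.

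Alternatives were quantile normalization or median centring, a fit on all rows, on 1 probe set per gene or on the upper 60% by mean, a trended robust prior, the mean of a gene's probe sets, the compared groups only, the replicate number as a block, and leaving out each array.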

Additional observations from a re-analysis of the deposited data

How the results depend on the processing

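No result changed sign with a call on either side. In OVA minus control 0 members were called with every row of the table, with the replicate number as a block or with the compared groups only (main count 1), and 0 to 1 without 1 array, the arrays being named beside the result. In the upper 60% of probe sets, 11 of the 70 members kept were called in 4-week minus OVA, where 1987 of 14046 probe sets were called. In 4-week minus OVA (main count 7) the count was 4 with every row, 2 with the compared groups only and 1 to 7 without 1 array. In 4-week minus control (main count 11) it was 5 with every row, 4 with the compared groups only and 2 to 8 without 1 array. With the replicate block, members called were 0, 5 and 10. Correlations of deviations between samples of the same number ran from −0.04 to 0.33 and 5 of 9 were highest with their own number, so the numbers are not shown to pair the samples. Median centring moved the members' median to 0.09 in 4-week minus OVA and to 0.11 in 4-week minus control. The median of all probe sets moved up as well, from −0.024 to 0.036 and from −0.041 to 0.032. The calls of Mrps21 and Mrps28 in 4-week minus OVA and of Mrps21, Mrps18b, Mrpl16 and Mrpl3 in 4-week minus control held under the 9 alternatives that keep all arrays or the compared groups. Of all probe sets, OVA minus control called 305 mainly, 143 with every row and 109 with the compared groups only; that last setting gave 737 in 4-week minus OVA (main 1481) and 2054 in 4-week minus control (main 3364). Without 1 array the 3 counts were 63 to 305, 446 to 1361 and 1560 to 2966. The cause of these changes was not tested.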

Other observations

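The respiratory chain and ATP synthase, whose mitochondrially encoded subunits the mitochondrial ribosome makes, had calls in both directions among their 72 measured nuclear genes. In 4-week minus OVA 8 rose and 3 fell, with a median of 0.04. That is 15.3% called, against 6.33% of all probe sets (3.81% higher, 2.51% lower). In 4-week minus control 10 rose and 4 fell, with a median of 0.01. That is 19.4% called, against 14.4% of all (7.92% higher, 6.45% lower). In OVA minus control 0 were called (11 at an unadjusted p under 0.05 in limma), against 1.3% of all. Cox7a2l, a factor of respiratory supercomplexes, measured 7.56, 7.58 and 7.62 on the 4-week arrays, 6.84, 6.95 and 6.88 on the OVA arrays and 7.20, 7.08 and 7.01 on the control arrays. It rose by 0.70 ± 0.07 in 4-week minus OVA (limma adjusted p = 0.00267), and the 3 groups did not overlap. Ndufa6, a complex I subunit, rose by 0.59 ± 0.09 (0.00847). Ndufs7, which carries an iron-sulfur cluster of complex I, fell by 0.44 ± 0.08 (0.017), and Atp5g1, a source of the ATP synthase c subunit, fell by 0.48 ± 0.10 (0.0329). By complex, 4-week minus OVA called 6 higher and 1 lower of 34 in complex I, 1 higher of 13 in complexes II and III, 1 higher and 1 lower of 10 in complex IV and 1 lower of 15 in ATP synthase.

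Mitochondrial import, which brings in the ribosomal proteins, had 2 of 25 genes called in 4-week minus OVA, 8% against 6.33% of all probe sets. Tomm20, a receptor of the outer membrane, rose by 0.38 ± 0.06 (limma adjusted p = 0.00971), and Grpel1, the nucleotide exchange factor of the matrix chaperone, rose by 0.35 ± 0.06 (0.016).

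Of 24 measured neighbours of the 13 called members in the RefSeq gene order, 0 were called in OVA minus control (limma). In 4-week minus OVA 4 were called, and in 4-week minus control 3. Of all probe sets, 1.3%, 6.33% and 14.4% were called in these comparisons. Next to Mrpl40, 2510002D24Rik rose by 0.38 ± 0.07 in 4-week minus OVA, and next to Mrpl4, S1pr2 fell by 0.72 ± 0.12. Next to Mrpl18, which fell in 4-week minus control, Tcp1 rose there by 0.54 ± 0.07. Next to Mrps18b, Atat1 fell by 0.31 ± 0.06 in 4-week minus OVA.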
